A study of Mus musculus with 4 samples.

Results

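The aquaporin genes encode membrane channels for water and, in some members, glycerol, and 10 of them (Aqp1 to Aqp9 and Aqp11) were taken by symbol from 21887 protein-coding genes at their mm10 positions. Their RNA polymerase II (Pol II) occupancy came from ChIP-seq of 4 organs of C57BL/6 mice (heart, kidney, liver, lung) with the 4H8 antibody, which binds the C-terminal domain of the polymerase. The flash-frozen organs came from 2 mice, all were crosslinked and sheared side by side in a 96-well plate by PIXUL ultrasound, and libraries were made by Tn5 tagmentation. No treatment, transgene or mutant strain entered the comparison, and the sources used here give neither the age and sex of the mice nor whether a list pools both. There was 1 list of called regions for each organ, so values have no spread between replicates and differences between organs have no test.

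Aquaporins sit in the membrane as groups of subunits, each with its own pore, and let water follow osmotic gradients across epithelia and endothelia. Aqp1, Aqp2, Aqp4 and Aqp5 are water channels, Aqp3, Aqp7 and Aqp9 (the aquaglyceroporins) also pass glycerol, and Aqp6, Aqp8 and Aqp11 are less typical members found largely in intracellular membranes. In the kidney, Aqp1 serves constitutive water reabsorption in the proximal tubule and thin descending limb, whereas Aqp2 is inserted into the apical membrane of collecting duct principal cells under vasopressin and Aqp3 lets the water leave through their basolateral side. Pol II lies at the start of transcribed genes and along their bodies, so its occupancy speaks of transcription and not of the channel protein.

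Library totals were 9880184 tags (heart), 16589890.5 (kidney), 20058183 (liver) and 13296938 (lung), and 32.1% (lung) to 55.1% (liver) of them fell inside called regions. Deposited tag counts were scaled by the authors to 10000000 tags a list, and every tag value below is on that scale unless called unscaled. The tag threshold of the caller, over its 500 bp window, corresponded to 18.2 (heart), 14.5 (kidney), 14.0 (liver) and 16.5 (lung) tags per kb. It was highest in heart, and a gene with no region is one the caller passed over, not one shown to lack polymerase. The organs' own markers stood apart in the heart, kidney and liver lists, and less so in that of lung. Regions took up 50% or more of the span of 8 of 8 cardiomyocyte genes in heart and 7 of 8 proximal tubule genes in kidney. The same held for 8 of 8 hepatocyte genes in liver and 5 of 6 alveolar type 2 cell genes in lung. Such genes that also had at least 2-fold the tags per kb of each other list numbered 8, 6, 8 and 2 in that order. Sftpc (type 2) had 23.65 tags per kb in liver and 22.9 in lung, and Slc27a2 (tubule) 68.6 in liver and 43.4 in kidney. In whole organs, fewer cells that use a gene and less polymerase on the gene in each cell cannot be told apart.

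The 4 organs differed in which aquaporin genes were occupied, with some members shared between organs. A gene was called covered when at least 50% of its annotated span, introns included, lay inside called regions. Covered members were Aqp1 and Aqp7 in heart (2 of 10), Aqp1, Aqp2, Aqp3, Aqp7 and Aqp11 in kidney (5 of 10), Aqp8, Aqp9 and Aqp11 in liver (3 of 10) and Aqp1 and Aqp5 in lung (2 of 10). The shares of all protein-coding genes that were covered were 16.1% (heart), 21.1% (kidney), 21.9% (liver) and 15.1% (lung), and among the 13460 genes with spans within the range of the members (3802 to 57191 bp) the shares were 18.0%, 24.7%, 25.8% and 16.9%. The kidney count of 5 of 10 was the one furthest above its background, and the counts of 2 of 10 lay close to theirs.

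No aquaporin gene was covered in all 4 lists. Aqp1 was covered in 3 lists, Aqp7 and Aqp11 in 2, and Aqp2, Aqp3, Aqp5, Aqp8 and Aqp9 in 1 list each, whereas Aqp4 and Aqp6 were covered in none. Over all protein-coding genes, 8.04% were covered in 4 lists, 4.91% in 3, 7.2% in 2, 13.0% in 1 and 66.9% in none. The median covered percent of the members was 43.3% in kidney, where all genes had a median of 5.07%. In heart it was 0% (all genes 2.26%), in liver 2.04% (2.76%) and in lung 0% (3.88%).

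**Figure D1:**
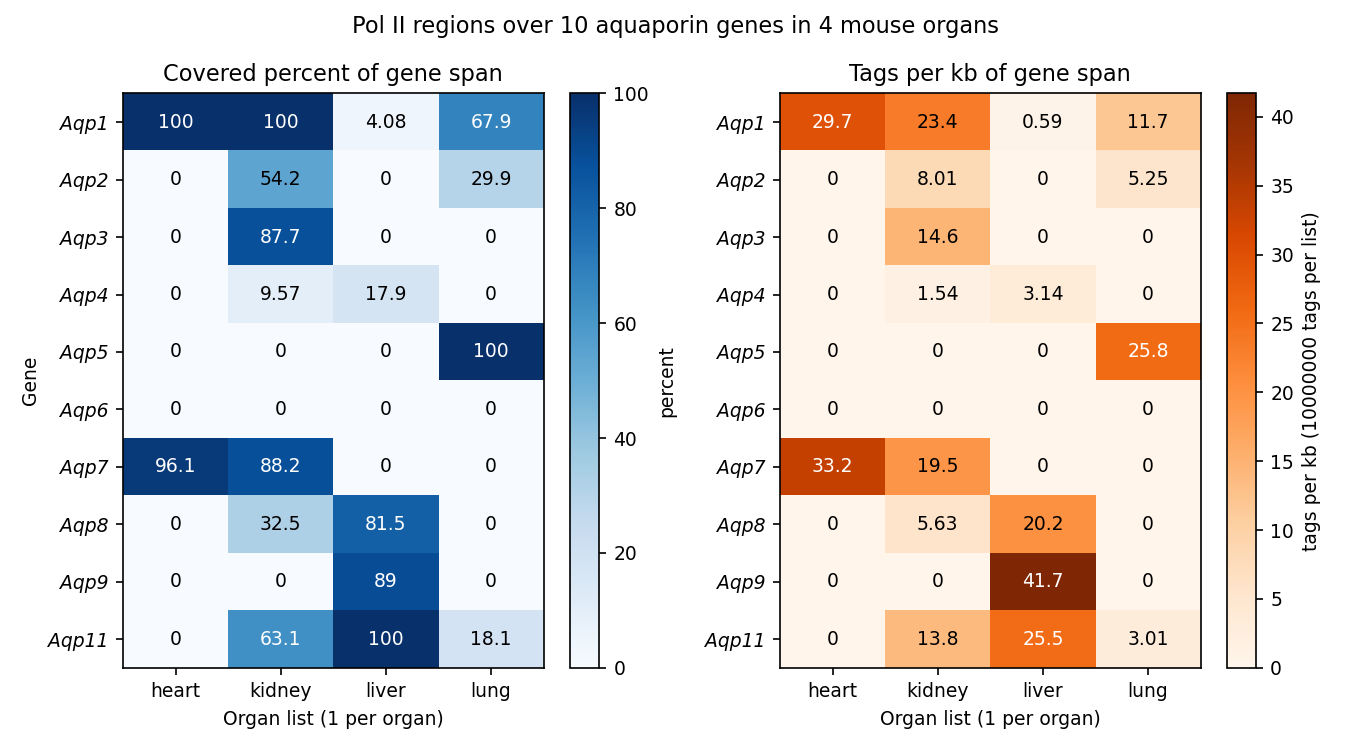
Covered percent of the gene span (left) and tags per kb of gene span (right, scaled to 10000000 tags a list) for the 10 aquaporin genes in rows and the 4 organ lists in columns, with 1 list per organ. Aqp9 reached 41.7 tags per kb in liver and 0 elsewhere, and Aqp6 had 0 in all 4 lists.

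A region within 1 kb of either end of the gene was present for 2 members in the heart list, 7 in kidney, 4 in the liver list and 4 in that of lung. The shares of all genes with such a region were 51.4%, 56.8%, 53.3% and 54.7% in the same order, and among genes in the span range of the members 57.8%, 64.1%, 61.1% and 61.6%. Heart stood lowest, with the same 2 members as by coverage, Aqp1 and Aqp7. Counting the annotated start of transcription alone, which the reference gives for 9 members, left counts of 2, 6, 3 and 3. The share of all genes was not computed for the start alone, so these counts have no background to be read against. No region in the span of a member overlapped another protein-coding gene. Non-coding genes did overlap regions of Aqp1, Aqp2, Aqp5, Aqp7 and Aqp9, and their polymerase cannot be told apart from that of the aquaporin gene where they overlap.

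Among the water channels, Aqp1, the constitutive channel of proximal tubule, endothelium and red cells, had the broadest occupancy (chromosome 6, 55336299 to 55348555, plus strand). It was covered over 100% of its 12.3 kb in heart and in kidney, over 67.9% in lung and over 4.08% in liver. Its level, in tags per kb of gene span, was 29.7 in heart, 23.4 in kidney, 11.7 in lung and 0.59 in liver. In heart a single region of 26.9 kb with 799 tags (95% Poisson interval 744 to 856, counting error only) began 11.9 kb before the start and ran 2.71 kb past the end, and it also held the non-coding gene Gm38819. The kidney region of 18.1 kb with 424 tags (393 to 456) began 1.34 kb before the start and ended 4.48 kb past the gene. The lung list broke the gene into a region of 7.68 kb over the start (133 tags, 114 to 154) and a stretch of 0.823 kb near the end, and the liver list had only a 500 bp stretch of 7.23 tags (4.00 to 12.0), from 5.07 kb after the start.

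The level of Aqp1 in heart was 1.27 times that in kidney (95% interval of the ratio 1.10 to 1.46, counting error only), 2.53 times that in lung (2.12 to 3.03) and 50.3 times that in liver (29.9 to 91.9). Kidney was 1.997 times lung (1.69 to 2.37). With tags taken as a share of those in nuclear regions, heart was 1.80 times lung and kidney 1.45 times lung. The liver value rests on 14.5 unscaled tags. Endothelium uses Aqp1 too, and its markers were covered for 3 of 8 in heart and 3 of 8 in lung, against 1 of 8 in kidney and 1 of 8 in liver, and their summed levels were 162, 87.6, 26.3 and 32.9 tags per kb in that order. Proximal tubule markers were covered for 7 of 8 in kidney, 1 of 8 in liver and 0 of 8 in heart and lung, with summed levels of 228.5 (kidney), 74.3 (liver), 5.70 (heart) and 8.37 (lung) tags per kb. The part of these cell types in the Aqp1 levels was not tested. The red cell genes Hba-a1, Hba-a2, Hbb-bs and Hbb-bt had no region in their span in any list, though these globin genes have close copies and are uncertain.

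The 250 bases before the Aqp1 start are shown because a region covered them over 100% in heart and kidney, 74% in lung and 0% in liver. They lie at chr6:55336049-55336298 on the plus strand of GRCm38.p6 (mm10), from RefSeq. They were searched on both strands for the TATA box TATAAA, the box called CCAAT, the Sp1-type motif GGGCGG, the core of the cAMP response element TGACG, the GATA factor motif AGATAA and the homeobox motif CAAGTG, and capitals mark the matches here and in the promoters below.
Aqp1: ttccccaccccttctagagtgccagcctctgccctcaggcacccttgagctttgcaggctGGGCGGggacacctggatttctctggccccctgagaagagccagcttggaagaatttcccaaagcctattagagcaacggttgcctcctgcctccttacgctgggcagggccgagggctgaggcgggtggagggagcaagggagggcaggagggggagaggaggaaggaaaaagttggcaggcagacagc
The single match, GGGCGG at 190 to 185 bases before the start, is a motif that 32.7% of 32851 promoter windows of this length hold. The G and C content was 62% with 5 CpG pairs, where all windows had medians of 52.4% and 6.

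Aqp2, Aqp5 and Aqp6 form a tandem cluster on chromosome 15, all on the plus strand, and their occupancy differed between organs. Aqp2 (99579056 to 99584545) and Aqp5 (99591028 to 99594829) are 6.48 kb apart, and Aqp6 (99598468 to 99605478) follows after 3.64 kb. Heart and liver had no region over the cluster, and their nearest regions lay 41.3 kb or more (heart) and 95.2 kb or more (liver) from any of the 3 genes. Kidney had a region over the first part of Aqp2, and lung had regions over Aqp5 and over the end of Aqp2. Aqp6, an anion-permeable channel of intercalated cells, had no region in its span in any list.

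Aqp2, the vasopressin-regulated channel of principal cells, was covered over 54.2% in kidney, 29.9% in lung and 0% in heart and liver. The kidney region of 3.50 kb with 51.8 tags (95% interval 41.5 to 64.0) began 0.53 kb before the start and covered parts 1 and 2 of the gene fully, part 3 over 16.6% and part 4 over 0%, with the span divided into 4 equal parts from the start. A second kidney region of 3.88 kb (62.7 tags, 51.2 to 76.0) lay between Aqp2 and Aqp5, from 0.254 kb past the end of Aqp2. In lung the region of 2.82 kb (49.6 tags, 38.4 to 63.1) lay over the other end, with 0% of parts 1 and 2, 19.4% of part 3 and 100% of part 4 covered, and the start had no lung region within 1 kb.

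By level, Aqp2 had 8.01 tags per kb of span in kidney and 5.25 in lung, a ratio of 1.52 (1.02 to 2.32). Within the covered part alone the order turned, with 14.8 tags per kb in kidney and 17.6 in lung, close to the caller thresholds of 14.5 and 16.5. The kidney level was higher than that of 75.9% of protein-coding genes in the kidney list, and the lung level than that of 75.5% in the lung list. Principal cell markers were covered for 6 of 10 in kidney (among them Kcnj1, Tfap2b and Fxyd4), 2 of 10 in lung (Scnn1a and Hsd11b2), 1 of 10 in liver (Scnn1a) and 0 of 10 in heart, with summed levels of 106, 73.1, 36.7 and 14.7 tags per kb. The vasopressin receptor gene Avpr2, of the same list, had no region in its span in any list. The part of these cells in the Aqp2 levels was not tested.

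Aqp5, the apical water channel of alveolar type 1 cells and airway glands, was covered over 100% in lung and 0% in heart, kidney and liver. A lung region of 8.74 kb with 225 tags (200.5 to 252) began 2.98 kb before the start and ran 1.96 kb past the end. Its level of 25.8 tags per kb in lung was higher than that of 98.1% of protein-coding genes. Alveolar type 1 markers were covered for 5 of 6 in lung, 4 of 6 in heart, 2 of 6 in liver and 1 of 6 in kidney, so the heart list held most of those genes (Hopx, Ager, Cav1 and Clic5) without Aqp5. Airway cell markers were covered for 3 of 6 in lung, 1 of 6 in kidney and 0 of 6 in heart and liver, and the part of either cell type in the Aqp5 level was not tested. Aqp6 lay between the end of the Aqp5 region in lung, 1.68 kb before its span, and small regions 1.28 kb (lung) and 2.28 kb (kidney) past its end. Intercalated cell markers, the type in which Aqp6 is used, were covered for 2 of 8 in kidney (Slc4a9 and Tmem213) and 1 of 8 in lung. The non-coding gene Gm34765 (99575652 to 99601542) spans Aqp2, Aqp5 and part of Aqp6, and regions were called on tags of both strands, per the file headers.

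**Figure D2:**
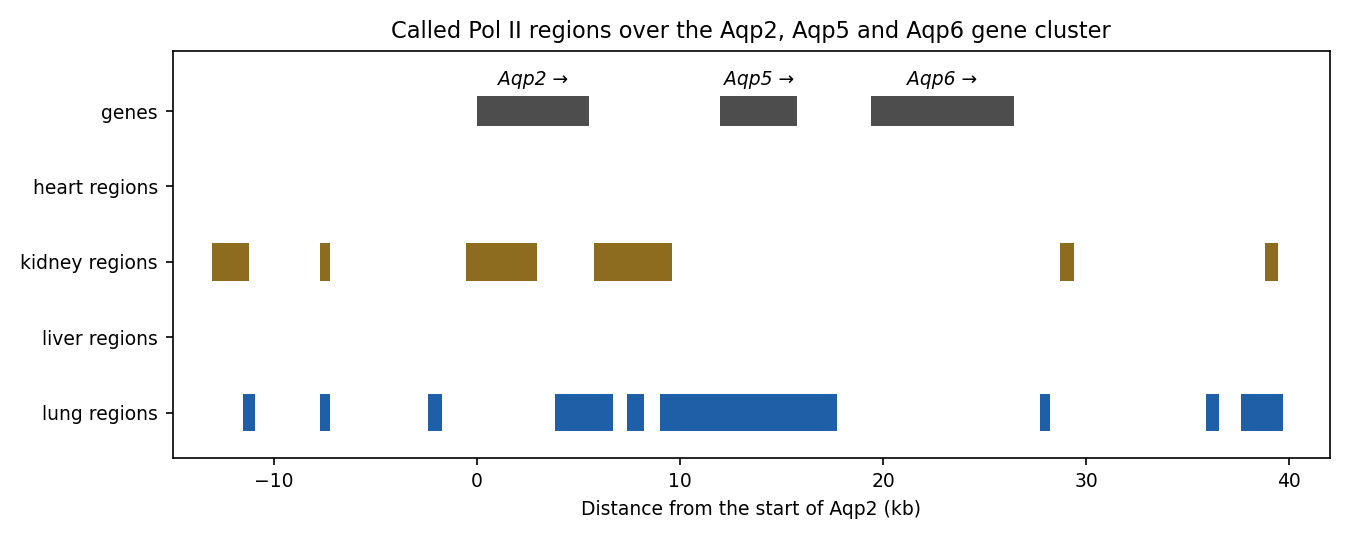
Called Pol II regions (coloured bars, 1 row per organ list) over Aqp2, Aqp5 and Aqp6 (grey bars, transcribed left to right), with distance from the start of Aqp2 in kb on the horizontal axis. Kidney regions lie over the first part of Aqp2 and between Aqp2 and Aqp5. The 8.74 kb lung region lies over Aqp5, and a lung region of 2.82 kb lies over the end of Aqp2. Heart and liver have none in the window.

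The promoters of Aqp2 and Aqp5 are set side by side because these windows of neighbouring genes were covered in different organs. The kidney list covered the Aqp2 window over 100% and the Aqp5 window over 0%, and the lung list the reverse. This holds for the windows, since lung also had a region over the end of Aqp2. The windows lie at chr15:99578806-99579055 and chr15:99590778-99591027, both on the plus strand.
Aqp2: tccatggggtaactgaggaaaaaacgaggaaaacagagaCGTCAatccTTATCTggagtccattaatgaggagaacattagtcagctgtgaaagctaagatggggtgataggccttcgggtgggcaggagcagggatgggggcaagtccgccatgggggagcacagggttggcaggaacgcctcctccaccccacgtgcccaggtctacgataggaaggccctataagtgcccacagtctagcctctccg
Aqp5: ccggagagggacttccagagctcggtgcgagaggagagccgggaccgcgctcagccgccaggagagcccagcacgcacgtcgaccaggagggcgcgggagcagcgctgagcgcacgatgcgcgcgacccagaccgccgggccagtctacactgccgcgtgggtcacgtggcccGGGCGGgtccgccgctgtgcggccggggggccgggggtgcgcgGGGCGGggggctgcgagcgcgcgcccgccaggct
The Aqp2 window held TGACG in reverse at 211 to 207 bases before the start and AGATAA in reverse at 202 to 197, motifs found in 17.8% and 9.99% of all windows. The Aqp5 window held GGGCGG at 77 to 72 and at 34 to 29 bases before the start. In base composition the windows differed widely, with 55.6% G and C and 8 CpG pairs at Aqp2 against 78.4% and 38 at Aqp5. No match was found in the Aqp8 and Aqp11 windows.

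Aqp4, the water channel of astrocytes, which is also found in gastric, kidney and muscle cells, had regions at its higher-coordinate end only (chromosome 18, 15389394 to 15410982). The covered share was 17.9% in liver, 9.57% in kidney and 0% in both heart and lung. A liver region of 4.81 kb held 84.5 tags (72.3 to 98.2) and a kidney region of 4.07 kb held 65.4 (53.7 to 78.9), and both reached past that end of the span. Over the whole span the level was 3.14 tags per kb in liver and 1.54 in kidney, a ratio of 2.04 (1.48 to 2.85). The nearest regions in heart and lung lay 367 kb and 280 kb away.

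Aqp8, a channel of hepatocyte canalicular and intracellular membranes that also passes ammonia and hydrogen peroxide, had its main occupancy in liver (chromosome 7, 123462294 to 123468003, plus strand). It was covered over 81.5% in liver, 32.5% in kidney and 0% in both heart and lung. The liver region of 6.30 kb with 156 tags (139 to 174) began 1.65 kb before the start and stopped 1.06 kb short of the end. Kidney had a region of 1.73 kb over the start (25.9 tags, 18.8 to 34.9) and another of 0.976 kb in part 3 of the gene, at 19.5 tags per kb. The level in liver was 20.2 tags per kb, 3.58 times the 5.63 of kidney (2.65 to 4.91).

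Among the aquaglyceroporins, Aqp3, the basolateral channel of principal cells, was covered in kidney alone (chromosome 4, 41092724 to 41098183, minus strand). The covered share was 87.7% in kidney, and heart, liver and lung had no region within 23.8 kb of the gene. The kidney region of 5.23 kb with 86.8 tags (73.2 to 102) began 0.674 kb after the start, left the 250 bases before it uncovered and ran 0.44 kb past the end. Its level of 14.6 tags per kb of span was higher than that of 84.7% of genes, and the 16.6 tags per kb of the covered part lay close to the kidney threshold of 14.5. The window before the start held TATAAA at 29 to 24 bases before it (12.4% of all windows) and GGGCGG in reverse at 73 to 68.

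Aqp7, the glycerol channel of fat cells, heart muscle and the proximal straight tubule, lies 44.5 kb from Aqp3 on the same strand (chromosome 4, 41033074 to 41048237) and had another pattern. It was covered over 96.1% in heart, 88.2% in kidney and 0% in liver and lung. The heart list held 2 regions in it, of 10.3 kb over the start (395 tags, 357 to 436) and 12.2 kb over the end (360 tags, 323 to 399). The kidney list held 3, and the one over the start, of 18.7 kb with 443 tags (412 to 476), began 10.4 kb before the gene. Levels were 33.2 tags per kb in heart and 19.5 in kidney, a ratio of 1.71 (1.504 to 1.938). The gene is used in fat cells, and of 6 fat cell markers 1 was covered in heart and 1 in kidney (Fabp4, which endothelium also uses), 3 in liver and 0 in lung. Adipoq, Plin1 and Lep had no region in their span in heart or kidney. Pparg, which fat cells need to form, was covered over 41.5% in heart (9.44 tags per kb) and 1.44% in kidney (0.24), Fabp4 reached 53.2 tags per kb in heart and 11.3 in kidney, and the summed level of the 6 genes was 63.4 tags per kb in heart, 12.5 in kidney, 4.41 in lung and 86.9 in liver. The part of fat cells in the Aqp7 levels was not tested.

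Aqp9, through which hepatocytes take up glycerol, had the highest level of the 10 genes (chromosome 9, 71110659 to 71167849, minus strand). It was covered over 89.0% of 57.2 kb in liver and 0% in the other lists, whose nearest regions lay 31.8 kb (heart), 45.6 kb (kidney) and 47.2 kb (lung) away. A liver region of 63.2 kb with 3112 tags (3035 to 3190) began 16.1 kb before the span, stopped 10.1 kb short of its end and also overlapped the non-coding genes Gm32714, inside the span, and Gm32511, before it. By tags it ranked 162 and by length 247 among 61956 liver regions. A second region of 7.86 kb (139 tags, 123 to 156) covered the end. The level was 41.7 tags per kb of span in liver, higher than that of 97.4% of genes, and 46.9 within the covered part.

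Both of the 2 annotated Aqp9 starts, at 71163289 and 71162633, lie inside the span. Distances and parts of this gene are counted from the edge of the span, not from these starts. The 250 bases before the first start are shown because the 63.2 kb liver region held them wholly and other lists had no region there. They are at chr9:71163290-71163539 on the minus strand.
Aqp9: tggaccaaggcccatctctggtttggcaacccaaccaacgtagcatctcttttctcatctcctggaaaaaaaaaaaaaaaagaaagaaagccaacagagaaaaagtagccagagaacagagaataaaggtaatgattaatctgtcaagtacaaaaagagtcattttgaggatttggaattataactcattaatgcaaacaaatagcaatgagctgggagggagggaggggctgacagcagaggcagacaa
None of the 6 motifs was found there. It had 40.4% G and C and 1 CpG pair, against 78.4% and 38 in the Aqp5 window.

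**Figure D3:**
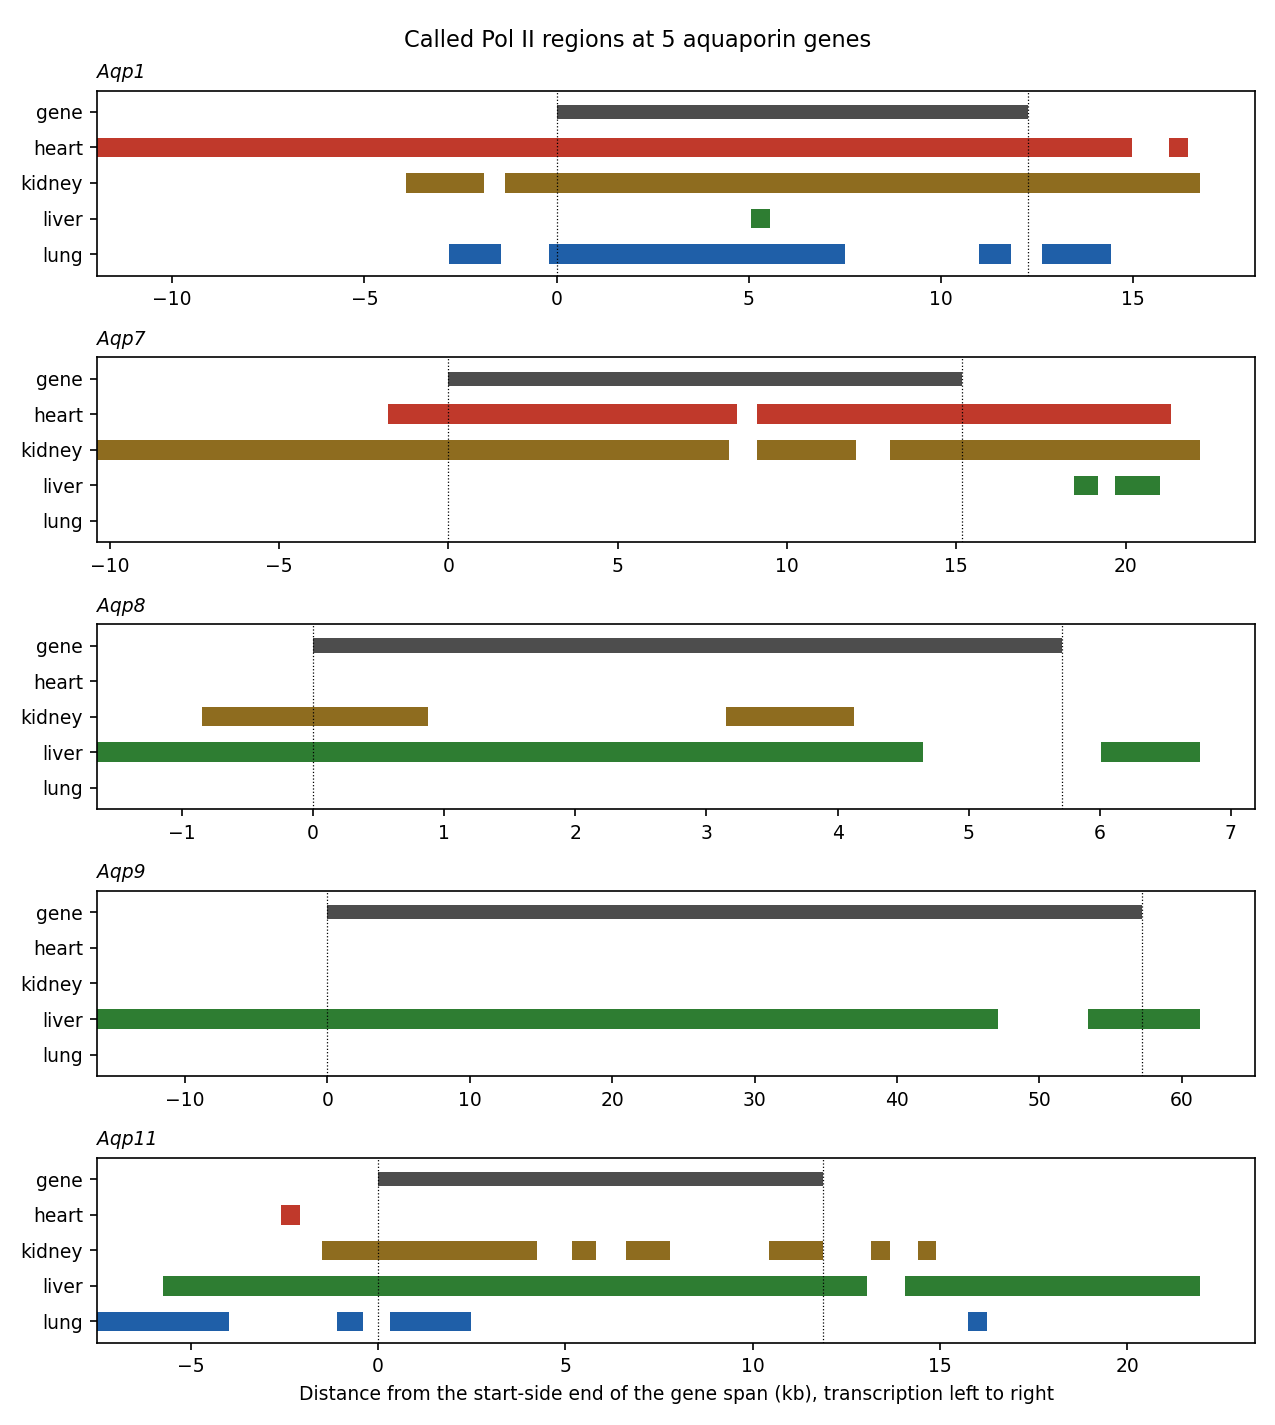
Called Pol II regions (coloured bars, 1 row per organ list) at Aqp1, Aqp7, Aqp8, Aqp9 and Aqp11 (grey bars), with distance in kb from the end of the gene span on the side of the start, transcribed left to right. Regions in the span or within 5 kb of it are drawn, and the 63.2 kb liver region over Aqp9 is the longest.

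Aqp11, an unorthodox channel of the endoplasmic reticulum whose loss gives cystic kidneys in mice, was covered in liver and kidney (chromosome 7, 97726379 to 97738247, minus strand). The covered share was 100% in liver, 63.1% in kidney, 18.1% in lung and 0% in heart. In liver 1 region of 18.8 kb with 480 tags (450 to 511) ran from 5.73 kb before the start to 1.19 kb past the end, whereas kidney held 4 regions, of which the one over the start had 142 tags (124 to 161) in 5.76 kb. In lung 1 region of 2.15 kb (35.7 tags, 26.3 to 47.4) lay in part 1 of the gene, and the nearest heart region was 2.09 kb from the gene. Levels were 25.5 tags per kb in liver, 13.8 in kidney and 3.01 in lung. The liver level was 1.85 times that of kidney (1.60 to 2.14) and 8.48 times that of lung (6.31 to 11.7), or 4.95 times with tags taken as a share of those in nuclear regions, and kidney was 4.58 times lung (3.36 to 6.38).

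A member was taken as led by an organ when it was covered there and its tags per kb were at least 2-fold those of each other list. Heart led 0 members, kidney 1 (Aqp3), liver 2 (Aqp8 and Aqp9) and lung 1 (Aqp5), against 2.67%, 2.68%, 5.92% and 0.854% of all protein-coding genes and 3.1%, 3.08%, 7.41% and 0.944% of those in the span range of the members. Aqp3, Aqp5 and Aqp9 had no region in their span in the other 3 lists, so no fold is given for them. Aqp7 in heart, at 1.71-fold, and Aqp11 in liver, at 1.85-fold, fell short of 2-fold over kidney. With each list held to its densest regions up to 100 Mb, Aqp3 was no longer led by kidney, heart led Aqp7, and liver led Aqp11 beside Aqp8 and Aqp9. With the higher-scoring 50% of regions, a choice added after seeing the data, Aqp8 lost its lead in liver and Aqp2 was led by kidney beside Aqp3. The shares of all genes led by each organ were not computed under these settings.

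**Figure D4:**
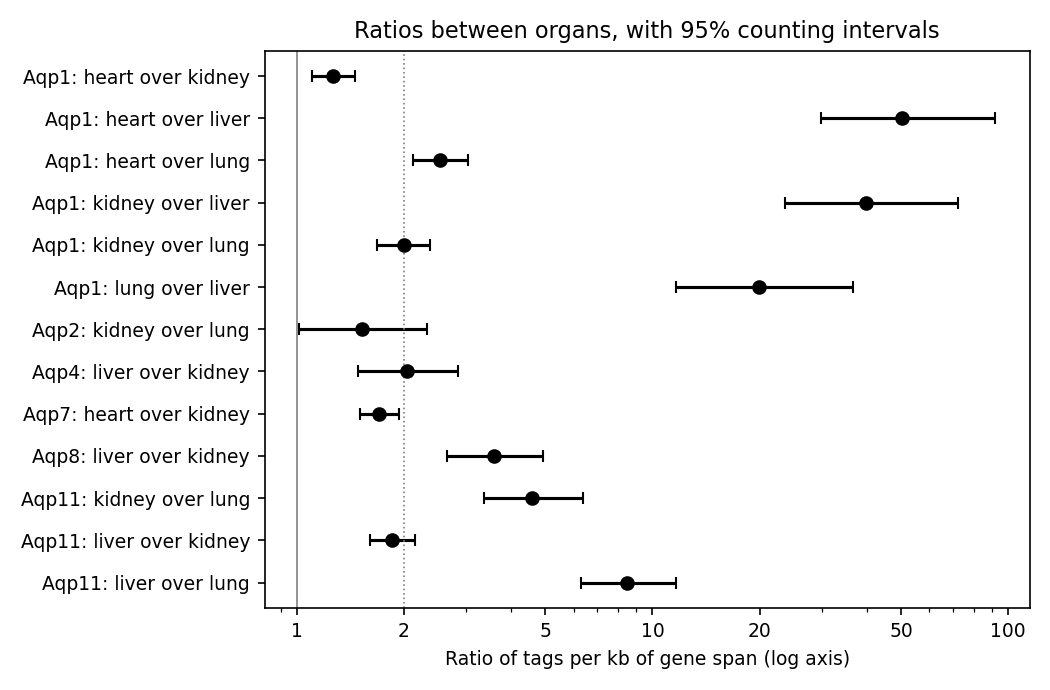
Ratios of tags per kb of gene span between organs (log axis) for the 13 pairs in which both lists have a region in the gene, the higher organ over the lower, with 95% counting intervals as bars and a dotted line at 2-fold. Intervals of Aqp8 (liver over kidney) and of Aqp11 (kidney over lung, liver over lung) lie above 2. So do those of Aqp1 for heart over lung and for heart, kidney and lung over liver. With tags taken as a share of those in nuclear regions, heart over lung at Aqp1 was 1.80, below 2. That of Aqp2 (kidney over lung) reaches down to 1.02.

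Along the 9 genes with an annotated strand, covered members were mostly covered from their first part. Part 1 was covered over 100% for Aqp1 and Aqp7 in heart, for Aqp1, Aqp2, Aqp7 and Aqp11 in kidney, for Aqp8, Aqp9 and Aqp11 in liver, and for Aqp1 and Aqp5 in lung. The exception was Aqp3 in kidney, with 50.6% of part 1 and 100% of the other 3. Partial coverage took different forms. Aqp1 in lung thinned towards the end, with 44.7% of part 3 and 26.9% of part 4. Aqp11 in kidney was covered over 65.1%, 39.0% and 48.2% of parts 2 to 4, while Aqp2 in lung was covered at its end. Occupancy ran past the annotated end of Aqp7 in both organs, where 100% of the next 5 kb was covered in heart and in kidney, and past that of Aqp1, where 64.2% was covered in heart and 89.6% in kidney. In liver, 81.2% of the 5 kb past Aqp9 and 80.0% of that past Aqp11 was covered. Past Aqp11, part of this came from a separate liver region of 7.87 kb that overlapped the neighbouring gene Clns1a. Past Aqp7 lay the gene Nfx1, at 7.08 kb, and the liver list covered 23.3% of those 5 kb with 0% of Aqp7 itself. Polymerase of neighbouring genes in these stretches cannot be told apart from that of the aquaporin genes.

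**Figure D5:**
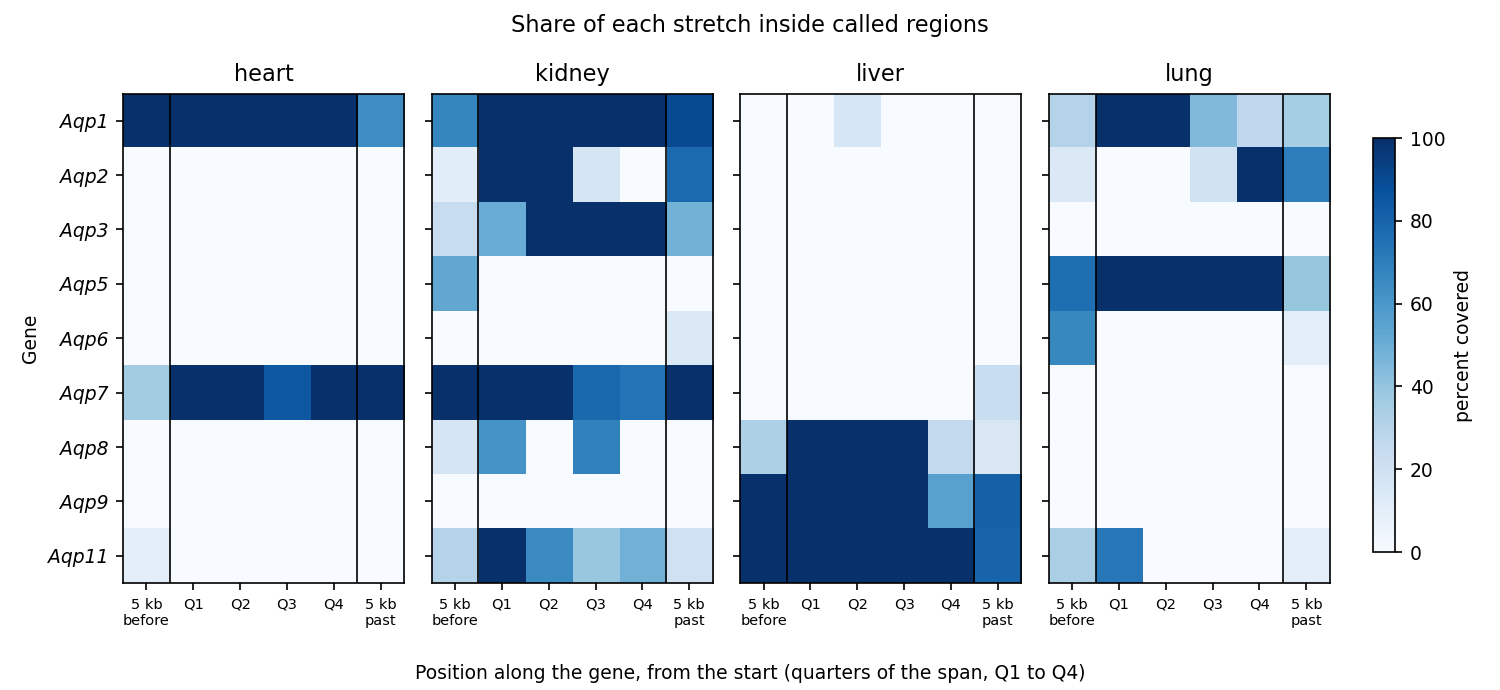
Percent of each stretch inside called regions for 9 aquaporin genes (rows) in the 4 organ lists (panels), from 5 kb before the gene through 4 equal parts, Q1 to Q4, of the span to 5 kb past it, in the direction of transcription. Aqp2 is covered at Q1 and Q2 in kidney and at Q4 in lung.

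For each covered member, the 3 protein-coding genes with the nearest levels over the 4 lists were named, by Euclidean distance in log2(tags per kb + 1), leaving out genes that share a region with it. Nearest to Aqp1 were Pgap3 (distance 0.54), Col4a1 (0.55), a basement membrane collagen gene, and Cstad (0.57). Nearest to Aqp7 were Trim63 (0.51), a ubiquitin ligase gene of heart and skeletal muscle, Hspb7 (0.69) and Srarp (0.70), of which Hspb7 and Srarp lay in the same heart region. Aqp5 was followed by Gprc5a (0.40), AI467606 (0.46) and the keratin gene Krt19 (0.46), and Aqp11 by Marveld2 (0.35), Ipmk (0.56) and Cyp2c23 (0.61). Aqp2 had Osbpl6 (0.23), Ptpn13 (0.24) and Ccdc120 (0.38) nearest, and Aqp8 had Fancf (0.19), the bile acid synthesis gene Akr1d1 (0.35) and Nsmce3 (0.39). The smallest distances were those of Slc7a12, Map3k7cl and Wfdc15b to Aqp3 (0.0035 to 0.018) and of Serpina1e, Serpina11 and Serpina1c to Aqp9 (0.0092 to 0.010). Serpina1e and Serpina11 lay in the same liver region. The distances rest on 4 values each and describe these lists.

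Other genes of water and glycerol handling were set beside the members. Of the 2 further aquaporin genes in the list, Aqp12 had no region in its span. Mip, the lens channel gene, was covered over 100% in liver, 61.6% in lung, 40.4% in heart and 38.4% in kidney. For the listed genes and the cell type markers, it was not checked whether a region also overlapped a neighbouring gene. Of 18 genes of vasopressin signalling, 6 were covered in heart, 5 in kidney, 4 in lung and 5 in liver. The V1a receptor gene Avpr1a was covered in liver alone, with 43.2 tags per kb in liver, 2.38 in kidney and 0 in both heart and lung. Adcy6, the adenylyl cyclase of the collecting duct and heart, had 53.5 tags per kb in heart, 24.4 in kidney, 4.48 in lung and 3.50 in liver. Ezr, which links membrane proteins to actin, had 38.2 in kidney, 19.1 in lung, 12.6 in heart and 0 in liver, while Prkar1a, Vamp2 and Stx4a were covered in all 4 lists. Prkaca was covered in heart alone (22.3 tags per kb) and Prkar2a in liver alone (9.60).

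Of 10 osmotic response genes, 4 were covered in kidney, 2 in heart, 1 in liver and 0 in lung. Nfat5, the transcription factor that answers to high salt, was covered in kidney alone, with 14.6 tags per kb in kidney against 7.30 in heart, 7.10 in liver and 4.89 in lung. Slc5a3, the myo-inositol transporter gene, was also covered in kidney alone, with 24.8 tags per kb there and 1.94, 1.10 and 3.43 in heart, liver and lung. The urea transporter genes Slc14a1 and Slc14a2 were covered in none.

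Of 10 glycerol handling genes, 4 were covered in heart, 4 in kidney, 3 in lung and 4 in liver, and Gpd1, Lipe and Pnpla2 were covered in all 4 lists. Glycerol kinase, Gk, which traps the glycerol that Aqp3, Aqp7 and Aqp9 let in, had 23.1 tags per kb in kidney, 8.26 in liver, 0.53 in heart and 0.0013 in lung. Mgll, which releases glycerol from monoglycerides, was covered in heart alone (30.8 tags per kb) and the lipid droplet gene Cidec in liver alone (43.7). Of 10 genes of the dystrophin complex, which anchors Aqp4 in muscle and glia, 3 were covered in heart, 2 in kidney, 0 in lung and 1 in liver. Sgca, a sarcoglycan of striated muscle, was covered in heart alone (24.5 tags per kb), while Aqp4 itself had no heart region.

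Markers of cell types not yet given were covered as follows, in the order heart, kidney, liver, lung. Thin limb markers had 1, 1, 0 and 1 of 5 covered, which was Cryab each time, a gene that muscle uses too. Red cell markers had 1, 1, 1 and 0 of 8 covered, in each case Klf1. Skeletal muscle markers had 1, 0, 0 and 0 of 6, the heart-expressed Ckm. Acinar cell markers had 0, 1, 1 and 0 of 6, which was Cela1, and white blood cell markers had 1, 1, 1 and 2 of 6, with Cd68 in each list and Lyz2 in lung. Hepatocyte markers had 0 of 8 covered in heart, kidney and lung, and cardiomyocyte markers had 0 of 8 in kidney and lung and 2 of 8 in liver (Nkx2-5 and Pln). Alveolar type 2 markers had 0, 1 and 1 of 6 covered in heart, kidney and liver.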

How the data were processed

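Pol II was measured by ChIP-seq in 4 organs. Per the submitters' processing notes, Bowtie2 2.2.8 and HOMER 4.8 were used with mm10. Per the file headers, the authors called regions with findPeaks in histone style, joining 500 bp windows at a Poisson p threshold of 0.001, with a fragment length of 78 bp and no control library in the recorded command. The deposited signal of a region is its tag count, which the authors scaled to 10000000 tags a list. A score from the caller was deposited too, per the file headers, and served only to rank regions within a list. The sources used here do not say how tags with several matching places were handled.

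Gene spans came from the RefSeq table of GRCm38.p6, the assembly behind mm10, and strands and promoter sequences from a RefSeq promoter table, which held 9 of the 10 members. Covered percent is the share of a span inside regions. Tags per kb shares the tags of a region evenly over its length, sums them over the span and divides by the span in kb. A region counted as near an end when at least 1 bp of it fell within 1 kb. Poisson intervals used unscaled tags, each taken as independent. Ratio intervals were Clopper-Pearson binomial ones at 95%, from the unscaled tags shared out to the gene span, which are not whole counts. Both cover counting error only, and the ratio intervals leave out the error of sharing a region's tags evenly over its length. The overlap code was tested on simulated data. Python 3.11.15, numpy 2.4.6, pandas 2.3.3, scipy 1.17.1 and matplotlib 3.10.9 were used.

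The members, gene lists and naming rule were chosen with earlier results of these data known. The rule names all members, the 3 nearest genes of each covered member, and up to 3 genes of each list that were covered in 1 list only. Further list genes were picked as examples with their values known. Alternatives covered the 50% threshold, the gene-end window, subsets of regions, the fold and the scaling. Protein sequences were not analysed here.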

Additional observations from a re-analysis of the deposited data

How the results depend on the processing

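No paired analysis was possible because each organ has 1 list. Of 84 recomputed counts of members, 72 were within 1.5 times the reported value. The shares of all genes were not computed under these alternatives, so the counts below have no background to be read against. Whether a changed count was particular to the members was not tested. At 75% of the span the covered members fell to 3 in kidney (Aqp1, Aqp3 and Aqp7) and 1 in lung (Aqp5). With each list held to its densest regions up to 100 Mb, covered members were 2 in kidney (Aqp1 and Aqp7) and 1 in lung (Aqp5), members near an end were 3 in kidney, and members led by the organ were 1 in heart (Aqp7), 0 in kidney and 3 in liver (Aqp11 added). In that setting the kidney regions of Aqp2, Aqp3, Aqp4 and Aqp8 were not kept, Aqp11 was covered over 41.3% in kidney and Aqp7 over 68.7%. Regions near both ends were found for 2 members in lung. At 1.5-fold, 1 member was led by heart (Aqp7) and 2 by kidney (Aqp2 and Aqp3). With only the higher-scoring 50% of regions, Aqp8 was no longer covered in liver, which left 2 members there, liver led 1 member (Aqp9) and kidney led 2 (Aqp2 and Aqp3). The leads under this setting and with regions of at least 10 tags were computed after seeing the data, and the second changed none of them. The counts with regions that overlap no other protein-coding gene equalled the reported ones.

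With tags taken as a share of those in nuclear regions, the order of organs was unchanged for each of the 9 members with a region, but ratios with lung or liver moved. Liver over kidney became 1.49 instead of 1.85 at Aqp11, below its counting interval of 1.60 to 2.14. It became 2.87 instead of 3.58 at Aqp8 and 1.64 instead of 2.04 at Aqp4. At Aqp1, heart over lung became 1.80 instead of 2.53, below its interval of 2.12 to 3.03, and heart over liver 61.4 instead of 50.3. Kidney over lung at Aqp1 became 1.45 instead of 1.997, below its interval of 1.69 to 2.37. Liver over lung at Aqp11 became 4.95 instead of 8.48, below its interval of 6.31 to 11.7. Kidney over lung at Aqp11 became 3.33 instead of 4.58, just below its interval of 3.36 to 6.38. Lung over liver at Aqp1 became 34.1 instead of 19.9, and kidney over lung at Aqp2 became 1.11 instead of 1.52. The remaining ratios given here stayed within their intervals. Within the covered part alone, the order turned for Aqp2. Heart had the fewest tags and the highest threshold, and the part of these in what was called there was not tested.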
